A study of Mus musculus with 8 samples.

Results

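Type I interferon response genes were examined in regulatory T cells that lack Raptor. The 39 genes were taken from a given list of transcripts that cells raise on exposure to interferon alpha or beta. The list leaves out the guanylate-binding proteins, the immunity-related GTPases and the IFITM family. Of the 39 genes, 35 were matched to a probe set that names a single gene, among 17097 genes with such a probe set, and 34 of the 35 were bright enough to be tested, among 11413 genes tested. Isg15, Oas1a, Ifi44 and Bst2 were not matched and are not analysed here, and Mx2 was matched but lay under the brightness filter on all 8 arrays.

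Type I interferons bind the receptor chains IFNAR1 and IFNAR2, which activate the kinases JAK1 and TYK2. STAT2 is phosphorylated in turn and acts with IRF9 in the complex that binds the interferon-stimulated response element in the promoters of antiviral genes. Many of these genes are also kept at a basal level in resting T cells by low, continuous interferon signalling. Rptor encodes Raptor, the scaffold subunit that defines the kinase complex mTORC1, a regulator of cell growth and metabolism.

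The RaptorKO group comprised 4 samples from CD4(cre)Raptor(fl/fl) mice, in which Cre driven by Cd4 deletes floxed Rptor, and the WT group comprised 4 samples from wild-type mice. All were C57Bl/6J, and no age is given. Cd4 regulatory sequences act from the thymus onward, so conventional T cells of these mice would lose Raptor as well, and the deletion is not restricted to regulatory T cells. Spleen and peripheral lymph node cells were sorted as CD4+CD25+ and taken for RNA at once, untreated, so no interferon was added, and CD25 is also carried by activated conventional T cells. The labels do not state that replicates are different mice. The p-values therefore reflect only how these 8 samples vary, part of which may be technical.

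Each sample was hybridised to 1 array, and values are log2 intensities. Rptor read 6.63, 6.47, 6.50 and 6.95 in RaptorKO and 6.83, 6.85, 7.03 and 6.75 in WT, groups that overlap (change -0.23, SE 0.12, limma adjusted p = 0.491). Where its probes lie relative to the deleted exons is not known here, so they do not check the labels. Foxp3, which defines regulatory T cells, lay at 10.96 to 11.04 in RaptorKO and 10.79 to 10.96 in WT, and the sorting markers Il2ra and Cd4 lay at 10.66 or above on all 8 arrays. The 7 regulatory T cell markers averaged 10.60 to 10.73 in RaptorKO and 10.62 to 10.74 in WT, 4 of 7 with a higher mean in RaptorKO. Groups did not overlap for Ctla4 (change -0.32, limma adjusted p = 0.169), Cd4 (-0.22, 0.362) and Ikzf2 (0.21, 0.342), and none was called. In both genotypes replicates 1 and 2 had high Xist (10.88 to 11.18) and replicates 3 and 4 low Xist (5.04 to 5.62), with the Y-linked transcript Kdm5d the other way round, so changes are also given within these sets. Among markers of other cells, CD8 T cell markers averaged 6.08 to 7.03 in RaptorKO and 6.32 to 8.07 in WT (0 of 2 with a higher mean in RaptorKO), plasmacytoid dendritic cell markers 6.41 to 6.62 in RaptorKO and 6.02 to 6.43 in WT (4 of 5 higher), and macrophage and monocyte markers 4.76 to 5.15 in RaptorKO and 4.41 to 4.91 in WT (5 of 6 higher). B cell markers averaged 5.90 to 6.41 in RaptorKO and 5.14 to 6.66 in WT (3 of 4 higher). Erythroid markers averaged 6.84 to 7.25 in RaptorKO and 6.04 to 7.17 in WT (1 of 2 higher). By gene, Hba-a1 differed by 1.105 (limma adjusted p = 0.159) and Alas2 by -0.08, both with groups that overlapped. The CD8 T cell markers Cd8a (-1.03, limma adjusted p = 0.341) and Cd8b1 (-0.77, limma adjusted p = 0.103) also had groups that overlapped. Neutrophil markers averaged 5.46 to 7.06 in RaptorKO and 4.87 to 6.73 in WT (2 of 2 higher), dendritic cell markers 4.96 to 5.27 in RaptorKO and 5.06 to 5.35 in WT (1 of 4 higher), and NK cell markers 4.53 to 4.64 in RaptorKO and 4.48 to 5.04 in WT (2 of 4 higher). Of the 36 matched markers, 7 of them for regulatory T cells, the limma fit called 1, Ccr9, which T cells express too. Ccr9 is among the 5 plasmacytoid dendritic cell markers and differed by 0.74 (limma adjusted p = 0.0115). Tcf4, also among the 5, differed by 0.60 with groups that did not overlap and was not called (limma adjusted p = 0.117). Spib (0.26), Ly6d (0.10) and Klk1 (-0.06) had groups that overlapped. Among the 6 macrophage and monocyte markers, Lyz2 (change 0.61, limma adjusted p = 0.203), Cd68 (0.24) and Csf1r (0.23) passed the brightness filter on all 8 arrays, and Adgre1 and Itgam on none. Among the 4 NK cell markers, Klrd1 (-0.69) and Eomes (0.07) passed it on 6 arrays each, and Ncr1 and Klrb1c on none. The part of these cells in the results below was not tested.

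Because interferon response genes are known by their promoter element, the upstream sequence of 2 called members and of 2 that were not called is shown first. RefSeq promoter windows of 300 bases (250 before the annotated start and 50 after it, build GRCm38.p6) were found for 28 of the 39 genes. They were searched on both strands for the core of the response element, GAAA, any 2 bases and GAAA again, which on the other strand reads TTTC, any 2 bases and TTTC, with each of any overlapping matches counted. The core was present in 12 of the 28 genes (42.9%), against 1079 of all 27025 genes with a window (3.99%). Rsad2 is shown as the called gene that rose, and Samhd1 as the gene with the strongest call among those that fell. Ifit1 and Ifit3, both on chromosome 19 and not called, are shown as members with 2 matches each. Both had positive changes, but the windows of Oasl1, Oasl2 and Irf7, also positive, held no match. Trim21, with a change of -0.06, also had 2 matches, and counts for either direction are given below. The other called gene, Sp100, is not printed. Each stretch holds the 160 bases before the annotated start, read in the direction of the gene, with matches in capitals.
Rsad2 (chr12:26456453-26456612, minus strand): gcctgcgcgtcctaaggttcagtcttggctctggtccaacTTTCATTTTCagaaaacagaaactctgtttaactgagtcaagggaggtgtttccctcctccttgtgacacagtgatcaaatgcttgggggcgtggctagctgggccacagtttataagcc
Ifit1 (chr19:34640729-34640888, plus strand): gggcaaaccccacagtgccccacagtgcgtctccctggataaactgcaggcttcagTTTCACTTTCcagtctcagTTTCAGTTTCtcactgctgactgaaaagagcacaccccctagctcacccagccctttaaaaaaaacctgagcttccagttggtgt
Ifit3 (chr19:34583369-34583528, plus strand): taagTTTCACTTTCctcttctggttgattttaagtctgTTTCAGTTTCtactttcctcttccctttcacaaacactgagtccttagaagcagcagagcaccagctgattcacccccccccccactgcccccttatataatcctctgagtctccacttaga
Samhd1 (chr2:157135097-157135256, minus strand): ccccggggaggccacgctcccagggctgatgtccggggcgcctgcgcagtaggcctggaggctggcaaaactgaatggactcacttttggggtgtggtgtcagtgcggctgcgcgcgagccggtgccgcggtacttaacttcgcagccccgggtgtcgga
The match in Rsad2 begins 120 bases before the start, those in Ifit1 104 and 85 bases before it, and those in Ifit3 156 and 122 bases before it. The Samhd1 window and both Sp100 windows hold no match, which says only that these letters are not in these windows.

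Interferon response genes did not move as one group between genotypes. Rsad2 rose 1.94-fold in RaptorKO, while Samhd1 and Sp100 fell, and the other 31 tested members did not pass the test. That made 1 called higher and 2 called lower of 34 members, or 8.82% called, against 1.96% of all 11413 genes (0.824% called higher and 1.14% called lower). The median change of the 34 members was -0.07, against -0.01 for all tested genes, with 13 positive and 21 negative. The median size of the change regardless of sign was 0.21, against 0.11 for all tested genes. Every change is a log2 difference, RaptorKO minus WT, given with its limma standard error (SE), and a call is a Benjamini-Hochberg adjusted p under 0.05 over all tested genes. In sorted bulk samples, fewer cells that carry a transcript and less of it per cell cannot be told apart. The plot of changes shows the members spread on both sides of 0.

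**Figure D1:**
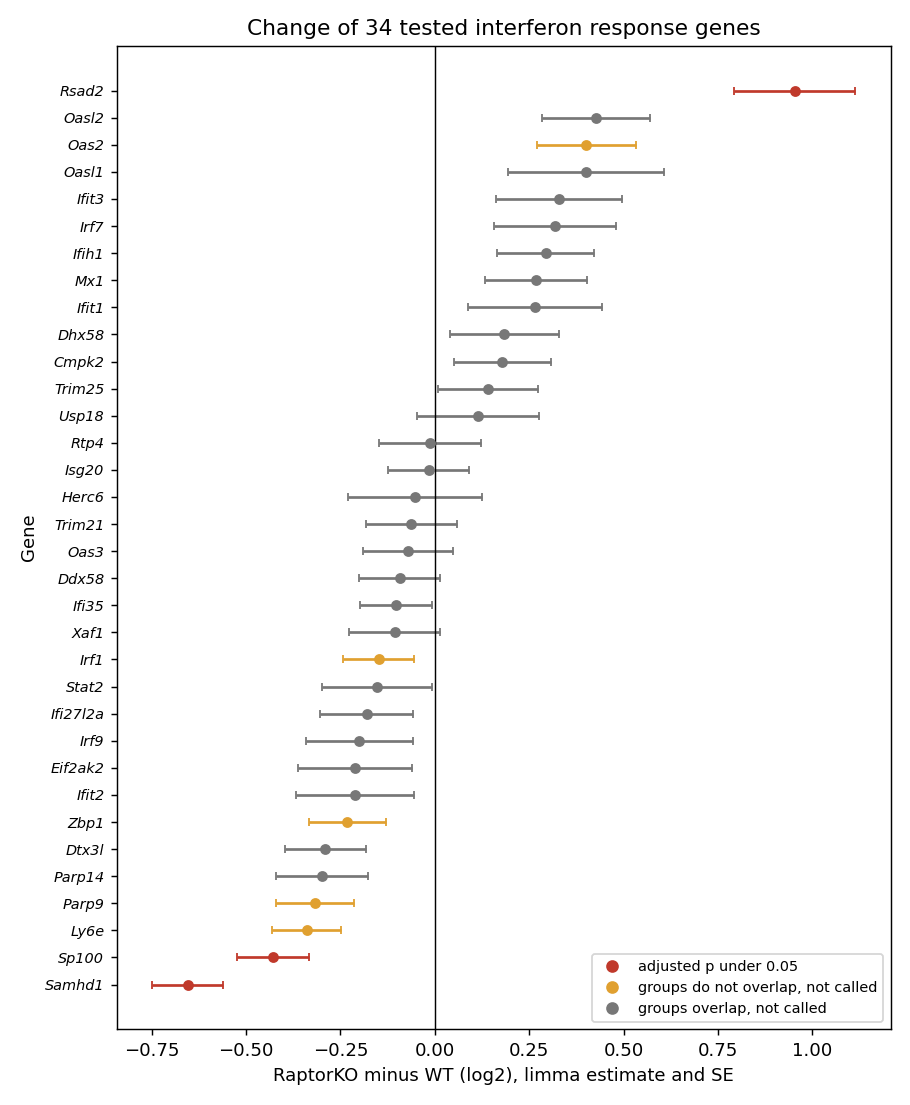
Change of the 34 tested interferon response genes, RaptorKO minus WT on the log2 scale (x axis), with 1 row a gene; points are limma estimates and bars their SE. Rsad2 stands at 0.95 on the right and Samhd1 at -0.65 on the left, and red marks the 3 called genes.

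Groups that did not overlap were found for 8 of 34 members (23.5%), 2 higher and 6 lower in RaptorKO. The background was 8.82% of all tested genes, 3.73% higher and 5.09% lower. The 8 were Rsad2 and Oas2, higher in RaptorKO, and Samhd1, Sp100, Ly6e, Parp9, Zbp1 and Irf1, lower in RaptorKO. At an unadjusted p under 0.05 there were 11 members of 34 (32.4%), against 13% of all tested genes. Every tested member but Oasl1 exceeded its array's 40th percentile on all 8 arrays, so the filter favoured neither genotype for those 33.

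The antiviral effectors, the largest role group with 14 of the 34 tested members, held all 3 called members. That was 21.4% of the 14, against 1.96% of all tested genes. Rsad2 encodes viperin, a radical SAM enzyme that makes a chain-terminating nucleotide and blocks the replication of many viruses. It read 6.95, 7.36, 6.88 and 7.55 in RaptorKO replicates 1 to 4 and 6.27, 6.17, 6.01 and 6.49 in WT replicates 1 to 4. The lowest RaptorKO array lay above the highest WT array, and replicate 4 was the highest array in both genotypes. The means were 7.19 ± 0.32 in RaptorKO and 6.23 ± 0.20 in WT (SD, n = 4 each), a change of 0.95 (SE 0.16, limma adjusted p = 0.0104). The other pair of Rsad2 probe sets also had higher means in RaptorKO, but both were dim. The first differed by 0.66 with groups that did not overlap (adjusted p = 0.118 with every probe set tested). It passed the brightness filter on 5 arrays, every RaptorKO array but only replicate 4 of WT. It thus entered the test through the group in which it was higher. The second differed by 0.48 with groups that overlapped (adjusted p = 0.551), and it also passed the filter on only 5 arrays. With the mean of the 3 probe sets the change was 0.70 and was not called (limma adjusted p = 0.0593).

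Samhd1 encodes a triphosphohydrolase that degrades deoxynucleotides and so restricts retroviruses in resting cells. Its values were 10.89, 10.75, 10.72 and 10.83 in RaptorKO and 11.47, 11.36, 11.43 and 11.55 in WT. The groups were apart by more than the spread within either, with means of 10.80 ± 0.08 in RaptorKO and 11.45 ± 0.08 in WT (SD, n = 4 each). Samhd1 fell by 0.65 (SE 0.09, limma adjusted p = 0.00426), or 1.57-fold. A further Samhd1 probe set read 9.67 ± 0.07 in RaptorKO and 10.49 ± 0.09 in WT, a change of -0.82 (adjusted p = 0.00308 with every probe set tested).

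Sp100, a component of nuclear PML bodies that silences incoming viral genomes, read 9.42, 9.63, 9.61 and 9.64 in RaptorKO and 9.99, 9.92, 10.05 and 10.05 in WT. No RaptorKO array reached the lowest WT array. The change was -0.43 (SE 0.10, limma adjusted p = 0.0436), and the call ended when any array but RaptorKO 2 was left out (highest adjusted p = 0.141) and with the replicate number as a block (adjusted p = 0.125). Its other probe set overlapped between the groups, with 8.94 ± 0.36 in RaptorKO and 9.19 ± 0.12 in WT. With the mean of both probe sets the Sp100 change was -0.34 and was not called (limma adjusted p = 0.134).

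Ly6e, a surface protein that limits coronavirus entry in mice and is abundant on lymphocytes, read 11.64, 11.72, 11.61 and 11.63 in RaptorKO and 11.99, 11.89, 12.03 and 12.05 in WT. These groups did not overlap either, but the change of -0.34 (SE 0.09) did not pass (limma adjusted p = 0.0929). It passed with an intensity trend in the variance (adjusted p = 0.000706) and with array weights (adjusted p = 0.047).

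**Figure D2:**
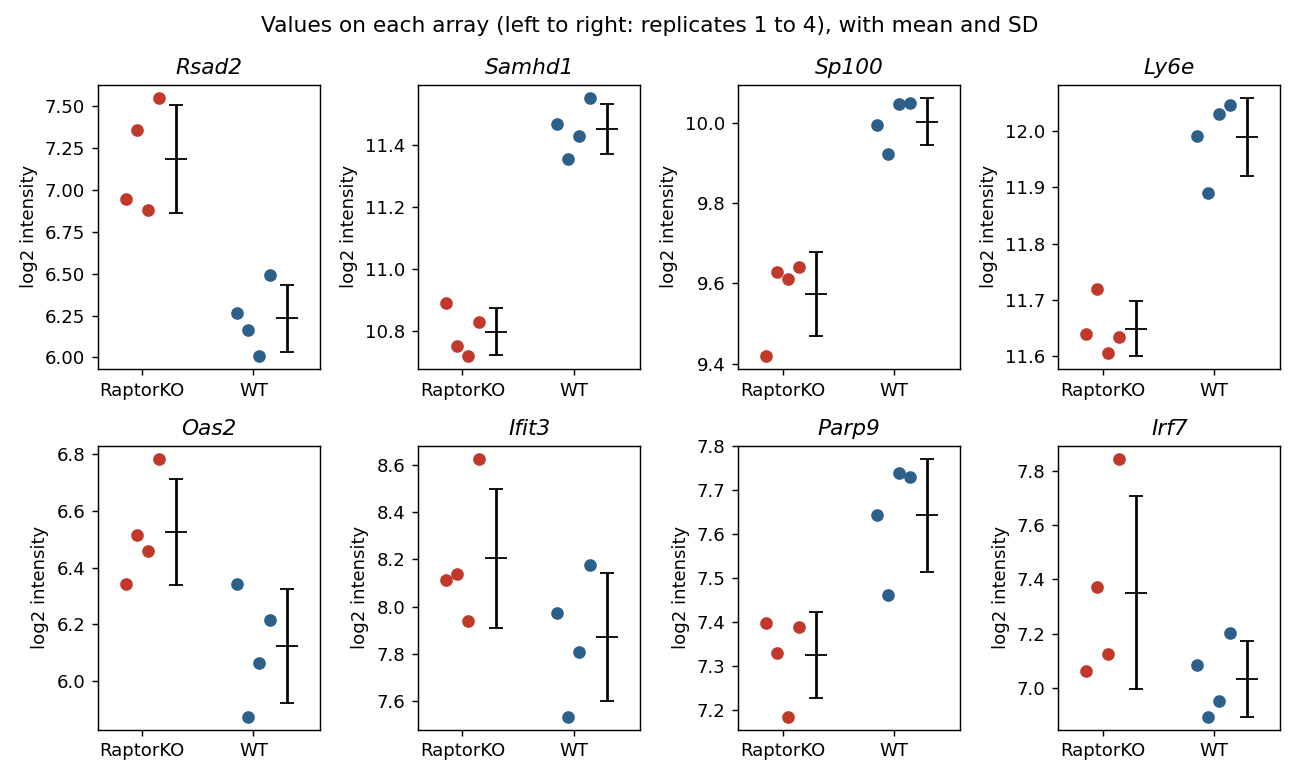
Log2 intensity on each array for 8 members, RaptorKO in red on the left and WT in blue on the right of each panel, replicates 1 to 4 from left to right, with mean and SD as bars. Rsad2 lies between 6.88 and 7.55 in RaptorKO and between 6.01 and 6.49 in WT, whereas the Irf7 groups overlap; each panel has its own axis, which does not start at 0.

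The IFIT proteins bind viral RNA that lacks the host cap methylation. Ifit3 varied more between arrays than most members, with 8.11, 8.14, 7.94 and 8.63 in RaptorKO and 7.97, 7.54, 7.81 and 8.17 in WT. The groups overlapped, and the change was 0.33 (SE 0.17, limma adjusted p = 0.443). Ifit1 differed by 0.27 (SE 0.18) and Ifit2 by -0.21 (SE 0.16), neither called. Mx1, a dynamin-like GTPase that traps viral nucleocapsids, differed by 0.27 (SE 0.14) with overlapping groups. Its relative Mx2 read 3.97 to 4.39 in RaptorKO and 4.05 to 4.18 in WT, under the filter on all 8 arrays, and was not tested. The other antiviral effectors, Cmpk2, Trim25, Isg20, Trim21, Ifi35 and Eif2ak2, had changes between -0.21 and 0.18, and all had adjusted p over 0.6. Eif2ak2 encodes PKR, the kinase that halts translation when it binds double-stranded RNA.

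The oligoadenylate synthetase family had positive changes in 3 of 4 tested members and 0 calls, with a median of 0.40. These enzymes sense double-stranded RNA and, apart from inactive members such as OASL1, make the messenger that activates RNase L. Oas2 read 6.34, 6.51, 6.46 and 6.78 in RaptorKO and 6.34, 5.87, 6.06 and 6.22 in WT, so the lowest RaptorKO and the highest WT array differed only in the third decimal. The change was 0.40 (SE 0.13, limma adjusted p = 0.176). Oasl2 differed by 0.43 (SE 0.14, limma adjusted p = 0.188), with groups that overlapped. Oasl1, which in mice restrains translation of Irf7, had a wide spread in RaptorKO, with 5.27, 5.90, 4.63 and 5.22, against 4.98, 4.74, 4.87 and 4.83 in WT. RaptorKO 2 was the highest of the 8 arrays and RaptorKO 3 the lowest, and the change of 0.40 (SE 0.21) was not called. Oas3 differed by -0.07. At an unadjusted p under 0.05 there were 2 of the 4 (50%, against 13% of all tested genes), Oas2 and Oasl2.

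Among the nucleic acid sensors, 0 of 4 were called and 2 (50%) had an unadjusted p under 0.05, in opposite directions. Over all tested genes that share was 13%. Ifih1, which encodes the long double-stranded RNA sensor MDA5, differed by 0.29 (SE 0.13, limma adjusted p = 0.353). Zbp1, a sensor of Z-form nucleic acids that can start necroptosis, read 9.75, 9.69, 9.50 and 9.86 in RaptorKO and 9.90, 9.95, 9.88 and 10.01 in WT. Its groups did not overlap, by a margin that the spread within RaptorKO exceeded, and the change was -0.23 (SE 0.10, limma adjusted p = 0.365). Ddx58, the gene of RIG-I, differed by -0.09 and Dhx58, the gene of its relative LGP2, by 0.18.

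None of the 4 transcription factor genes was called or had an unadjusted p under 0.05. Irf7, the factor that amplifies interferon alpha transcription, read 7.06, 7.37, 7.12 and 7.85 in RaptorKO and 7.08, 6.89, 6.95 and 7.20 in WT. RaptorKO 4 stood above all other arrays, while RaptorKO 1 lay below the 2 highest WT arrays, and the change was 0.32 (SE 0.16, limma adjusted p = 0.446). Irf1, which responds to interferon gamma as well as to type I interferon, read 9.05, 9.21, 9.20 and 9.21 in RaptorKO and 9.25, 9.40, 9.26 and 9.35 in WT. These groups did not overlap, but the difference of -0.15 (SE 0.09) was small and not called (limma adjusted p = 0.58). Irf9 (-0.20) and Stat2 (-0.15), subunits of the factor that binds the response element, had overlapping groups.

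Parp9, Dtx3l and Parp14, which take part in ADP-ribosylation, all had negative changes of similar size. PARP9 and DTX3L form a complex that ubiquitinates histones and viral proteins, and PARP14 is a mono-ADP-ribosyltransferase. Parp9 read 7.40, 7.33, 7.19 and 7.39 in RaptorKO and 7.64, 7.46, 7.74 and 7.73 in WT, without overlap (change -0.32, SE 0.10, limma adjusted p = 0.177). Dtx3l differed by -0.29 (SE 0.11, limma adjusted p = 0.244), its highest RaptorKO value of 7.87 just above the lowest WT value of 7.84. Parp14 differed by -0.30 (SE 0.12, limma adjusted p = 0.301), and a further Parp14 probe set by -0.05. All 3 had an unadjusted p under 0.05, against 13% of all tested genes, and 0 were called.

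In the ISG15 system, Usp18, the protease that removes ISG15 and blocks the receptor, differed by 0.11 (SE 0.16), and Herc6, the ligase that attaches ISG15 in mice, by -0.05 (SE 0.18). Both had groups that overlapped widely. The remaining induced genes, Rtp4, Xaf1 and Ifi27l2a, differed by -0.01, -0.11 and -0.18, with 0 called and 0 at an unadjusted p under 0.05 in limma.

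Within a genotype, some arrays were high or low for many members at once. RaptorKO 4 was the highest RaptorKO array for 16 of 34 members (47.1%, against 23.4% of all tested genes) and RaptorKO 3 the lowest for 19 (55.9%, against 32%). WT 4 was the highest WT array for 14 (41.2%, against 25.3%) and WT 2 the lowest for 19 (55.9%, against 36.7%). Averaged over the 34 members, the deviation from each gene's 8-array mean was -0.05, 0.10, -0.16 and 0.11 in RaptorKO and 0.03, -0.10, -0.05 and 0.11 in WT. The group means of this deviation were 0.0015 ± 0.13 in RaptorKO and -0.0015 ± 0.09 in WT (SD, n = 4 each). In this signed average, arrays of 1 genotype differed by far more than the genotypes did. Rises and falls of single members cancel in it, so it does not measure how far each gene differed between genotypes. WT 2 also had the highest mean of the CD8 T cell markers (8.07) and of the B cell markers (6.66) of all arrays, and whether this bears on its low interferon response values was not tested. The range over the 8 arrays ran from 0.27 for Ifi35 to 1.54 for Rsad2, with a median of 0.66 against 0.55 for all tested genes. Rsad2, Oasl1, Ifit3 and Irf7 had the 4 widest ranges.

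**Figure D3:**
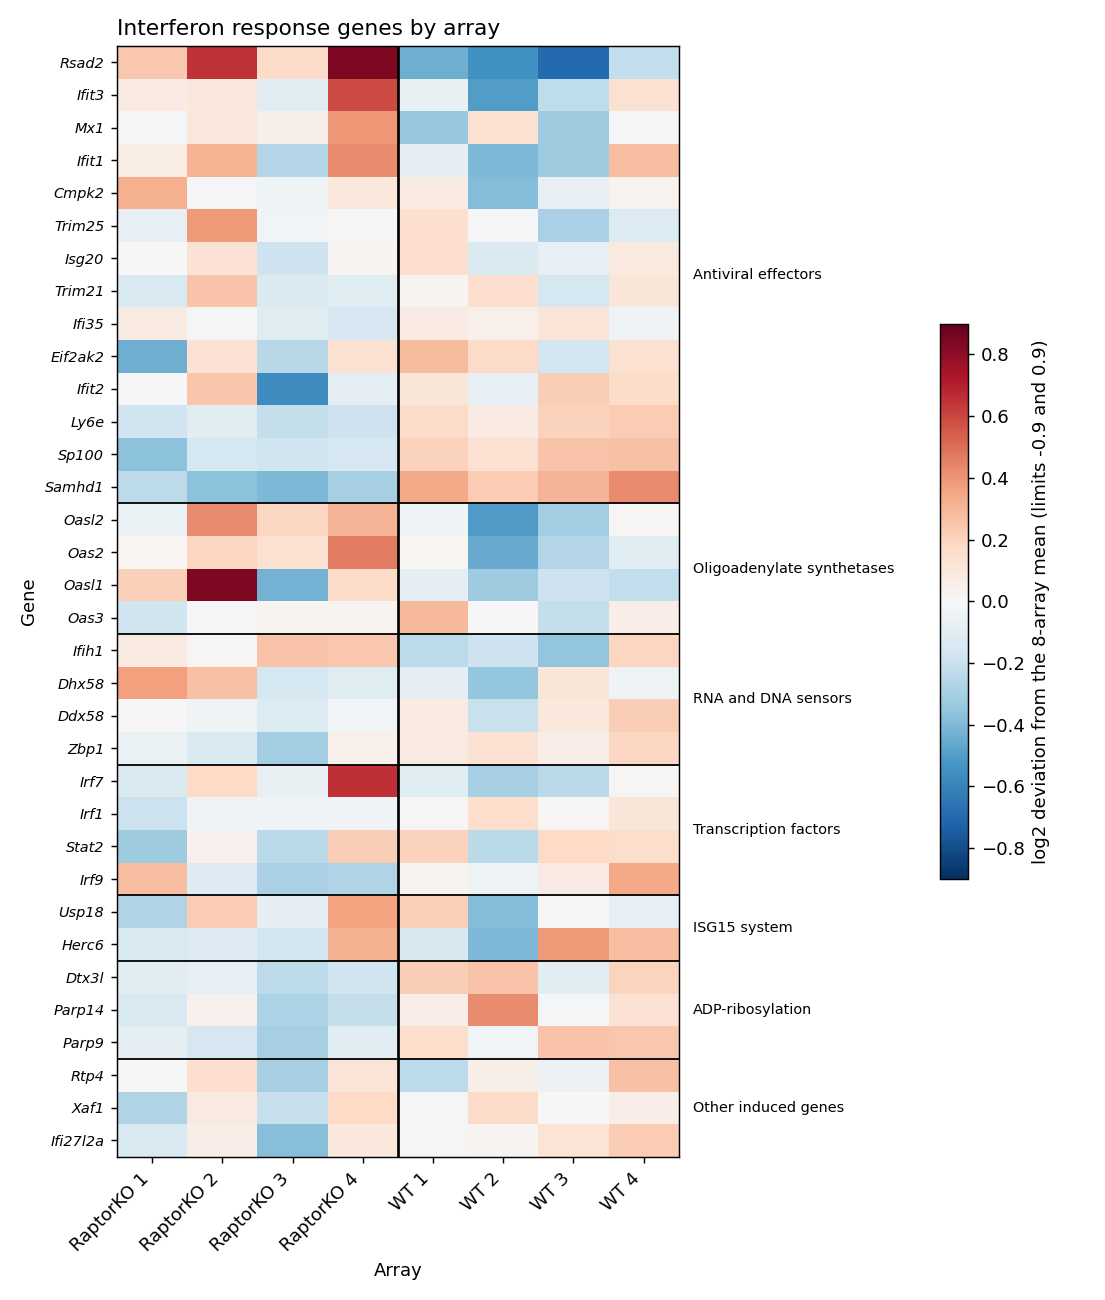
Log2 intensity minus the gene's mean over 8 arrays (colour) for the 34 tested members (rows, grouped by role) on each array (columns, RaptorKO left of the line, WT right of it). Samhd1, Sp100 and Ly6e are blue on every RaptorKO array and red on every WT array, whereas in Ifit1 and Usp18 the colours change within each genotype.

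Both sets of replicates gave the same direction for 26 of 34 members (76.5%), 12 higher and 14 lower, against 50% of all tested genes, of which 23.4% were higher and 26.6% lower in both. Rsad2 differed by 0.94 in replicates 1 and 2 and by 0.97 in replicates 3 and 4. Samhd1 differed by -0.59 in the first set and -0.72 in the second, and Sp100 by -0.44 and -0.42. With only 2 arrays against 2, none of these passed within a set. The 8 members of opposite sign were Irf9, Ifit2, Dhx58, Ddx58, Oas3, Herc6, Isg20 and Rtp4. The widest gap among them was in Dhx58, with 0.54 in replicates 1 and 2 and -0.17 in replicates 3 and 4. A limma interaction of genotype with the set passed for 0 of 34 members (lowest adjusted p = 0.334) and for 0% of all 11413 genes, with an unadjusted p under 0.05 in 3 members and in 11.4% of all genes.

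**Figure D4:**
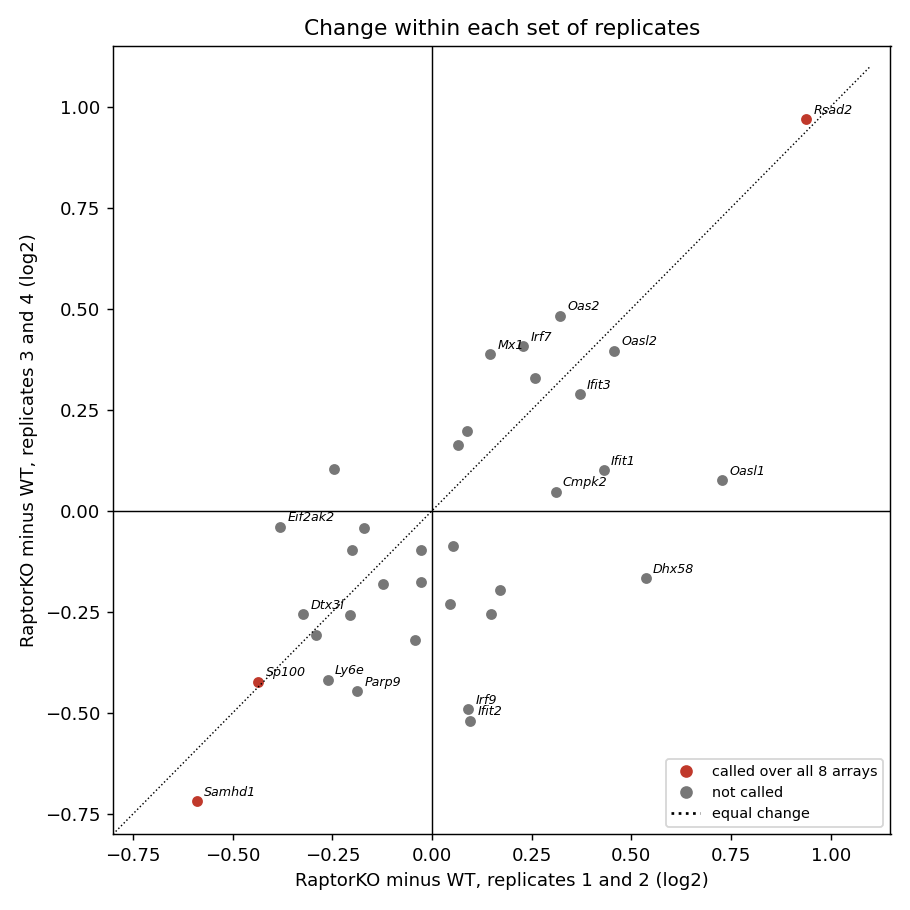
RaptorKO minus WT on the log2 scale within replicates 1 and 2 (x axis) and within replicates 3 and 4 (y axis) for the 34 tested members, with the dotted line marking equal change. The called genes, in red, lie near that line, with Rsad2 at 0.94 and 0.97, while Dhx58, Irf9 and Ifit2 lie in the lower right quadrant.

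The upstream pathway was read from lists of its receptors, kinases and sensors. Among 15 tested genes of interferon receptors and JAK-STAT signalling, limma called 0, and 2 had an unadjusted p under 0.05. This share of 13.3% was close to the 13% of all tested genes. Jak1, the kinase shared by the receptors of type I interferon, interferon gamma and the interleukin-2 family, read 9.88, 9.87, 9.82 and 9.75 in RaptorKO and 10.25, 10.16, 10.39 and 10.15 in WT. Its groups did not overlap, and its change of -0.41 (SE 0.10) missed the threshold (limma adjusted p = 0.0585). Jak1 was called in 5 of 22 alternative fits. Stat3, used mainly by interleukin-6 and interleukin-10, differed by -0.26 (SE 0.09, limma adjusted p = 0.241). The receptor genes Ifnar1 (-0.22) and Ifnar2 (-0.03) overlapped between the groups.

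Of 15 tested genes that sense nucleic acids upstream of interferon, 0 were called and 2 had an unadjusted p under 0.05. That was 13.3%, close to the 13% of all tested genes. Sting1, which relays cytosolic DNA signals, differed by -0.37 (SE 0.13, limma adjusted p = 0.194), and Ikbke, a kinase of IRF3 and IRF7, by -0.32 (SE 0.11, limma adjusted p = 0.216). Interferon genes themselves gave little signal. Ifnb1 lay at 4.07 to 4.26 in RaptorKO and 3.99 to 4.25 in WT, under the filter. Ifng, the gene of interferon gamma, lay at 4.17 to 4.48 in RaptorKO and 4.43 to 5.29 in WT. Its means differed by -0.52, with groups that overlapped. It passed the filter on 2 WT arrays and 0 RaptorKO arrays, too few to be tested. Of 8 matched interferon genes 3 were tested. None of the 3 was called or had an unadjusted p under 0.05 in limma (Ifna5 0.16, Ifnab 0.04).

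A wider list of 58 other interferon-induced genes, of which 43 were tested, had 33 negative and 10 positive changes, with a median of -0.13 against -0.01 for all tested genes. Epsti1, an interferon-induced gene first described in breast stroma, was the only call (2.33% of the 43, against 1.96% of all tested genes). It read 7.08, 7.43, 7.23 and 7.14 in RaptorKO and 7.79, 7.96, 8.05 and 8.11 in WT, far apart on all arrays, and fell by 0.76 (SE 0.11, limma adjusted p = 0.00525), or 1.70-fold. At an unadjusted p under 0.05 there were 12 of 43 (27.9%, against 13% of all tested genes). The groups did not overlap in 7 (16.3%, against 8.82% of all tested genes), 6 of them lower in RaptorKO, where the background was 5.09%.

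**Figure D5:**
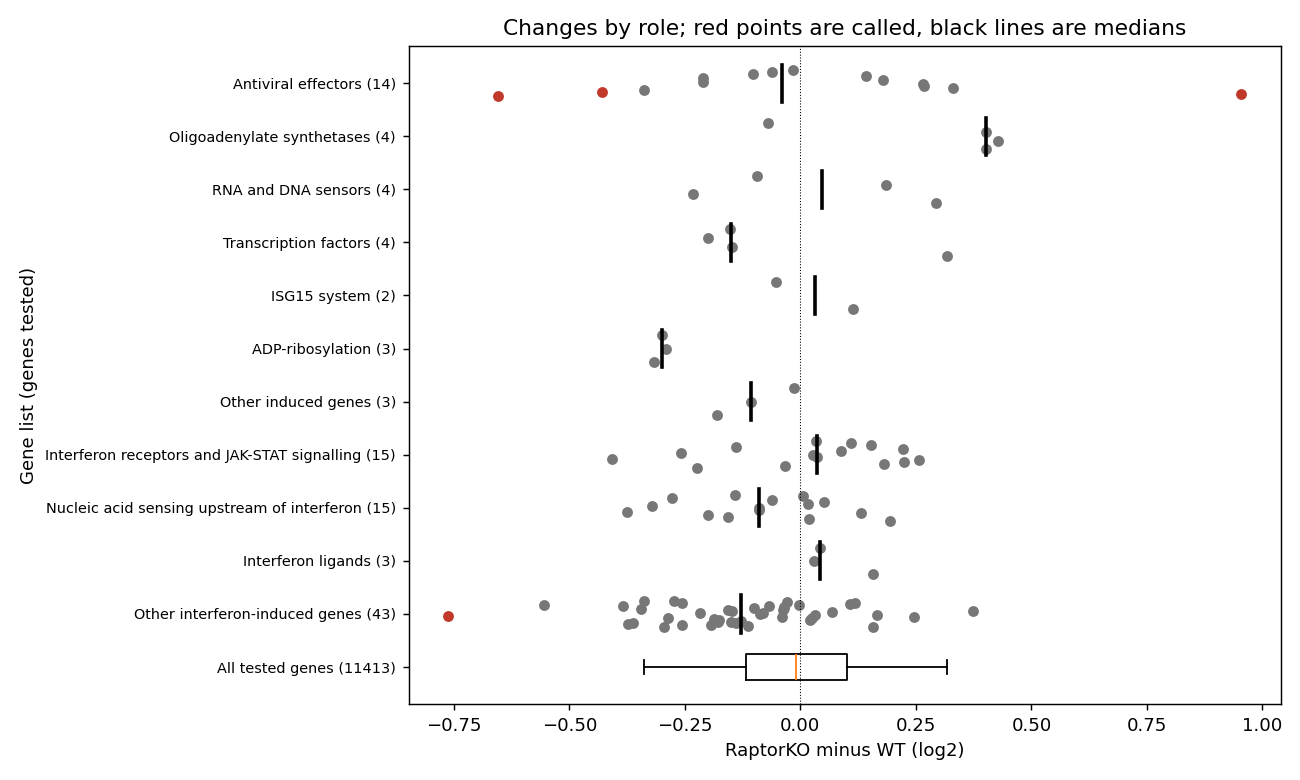
RaptorKO minus WT on the log2 scale for the 34 members by role and for 4 lists of related genes; points are genes, red where called, short black lines medians, and the box at the bottom shows the median (orange) and quartiles of all 11413 tested genes with whiskers at the 5th and 95th percentiles. The oligoadenylate synthetases have a median of 0.40 and the ADP-ribosylation genes one of -0.30, and the antiviral effectors run from -0.65 to 0.95.

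The response element core was found among members of either direction. It was in the window of 4 of 9 members with a positive change (44.4%) and of 5 of 15 with a negative change (33.3%), among the 24 tested members with a window, against 3.68% of all 9205 tested genes with one. A second element, TTCNNNGAA, which STAT dimers bind, reads the same on both strands. It was in 0 of the 9 and 6 of the 15 (40%), against 8.34% of all tested genes with a window; Samhd1 and Irf1 were among the 6. A gene with several windows was counted if any of them held the element. Isg20 (3 windows), Ifit2 (2) and Irf1 (2) were among the 6, whereas each of the 9 had only 1 window. The changes of Isg20 and Ifit2 also had opposite signs in the replicate sets. These are counts of letters in fixed windows and were not tested.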

How the data were processed

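Single-colour arrays measured total RNA of 8 sorted samples, 4 RaptorKO and 4 WT, grouped by sample title. The deposited values are log2 intensities per probe set made with RMA, per the submitters' processing notes, with the version and genome build not given in the sources used here. RMA normalizes between arrays and removes differences in total signal. Array medians lay between 5.21 and 5.29, and nothing further was normalized. The number of arrays limits the precision.

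Of 45141 probe sets, 104 of them controls, 28898 named a single gene (28689 matched RefSeq GRCm38.p6 by Entrez identifier), 551 several and 15692 none. Names come from the platform annotation. A gene was represented by its probe set with the highest mean over 8 arrays and tested if 4 or more arrays had it over their own 40th percentile. RaptorKO was compared with WT in limma 3.58.1 (R 4.3.3, lmFit and eBayes, no covariates), which gives all adjusted p-values. The script was tested on simulated data. Figures used matplotlib 3.10.9.

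The members and lists were chosen with earlier results of these data known, so no list was tested. The rule took array values of members that were called, did not overlap, had the 6 smallest p-values or the 4 widest ranges. Its part on the highest and lowest means was not used, because intensities are not compared between probe sets. From related lists it took called genes or the 2 smallest p-values. The alternatives were a replicate block, probe set, filter, normalization and variance choices, array weights, single arrays left out, and the replicate sets; the tested genes stayed the same when arrays were left out. The numbers were taken not to pair the samples, since deviations of same-numbered arrays correlated at 0.157, -0.153, 0.106 and 0.0259. The labels do not say whether same-numbered samples were paired, and these correlations cannot exclude it. The interaction under alternatives was added after seeing the data.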

Additional observations from a re-analysis of the deposited data

Results flagged for a closer look

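In 7 of 70 groups of 4 arrays (35 members in 2 genotypes) 1 array stood apart, by a gap to its neighbour that, as a share of the group's range, passed Dixon's critical value, which chance gives in about 1 of 20 groups. The gap was 0.936 of the range for Irf1, with RaptorKO 1 below the other 3 RaptorKO arrays, and 0.868 for Sp100, again with RaptorKO 1 lowest. It was 0.935 for Trim21 and 0.852 for Trim25, both tripartite motif ubiquitin ligases, with RaptorKO 2 above the other 3. RaptorKO 4 stood above the others for Herc6 (0.891) and, outside the members, for Ifna5 (0.848). In WT, Stat2 was lowest on WT 2 (0.895) and Dtx3l on WT 3 (0.834). Of these genes only Sp100 was called in RaptorKO against WT, and without RaptorKO 1 its change was -0.38 and was not called (limma adjusted p = 0.12).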

How the results depend on the processing

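Among 747 member values over 22 alternatives, 706 kept their direction and their side of the threshold, 19 changed sign, 20 lost a call and 2 gained one. Samhd1 was called in 20, Rsad2 in 19 and Sp100 in only 7 of the 22, and Epsti1, outside the members, in 21. The members called numbered 3 (1 higher, 2 lower). With the replicate number as a block, every probe set tested, no filter, quantile normalization or centring on array medians, 1 was called lower, since Sp100 was lost. The mean of probe sets left 1 called, 0 higher and 1 lower. Without single arrays, 2 to 3 members were called, 1 to 2 of them lower, and 101 to 257 genes in all, against 224. An intensity trend called 370 genes. Replicates 1 and 2 alone gave 0 members called (0 higher, 0 lower), 9 genes and a median of 0.060, and replicates 3 and 4 alone 0 members (0 higher, 0 lower), 85 genes and a median of -0.10. Fewer arrays enter those fits; otherwise the cause was not tested.

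The replicate block left 2 members and 175 genes called. The numbers were taken not to pair the samples, but the labels do not say. The interaction with the replicate set called 0 members in limma under each alternative run, with 3 at an unadjusted p under 0.05 in the first fit. Signs turned with the mean of probe sets for Il2ra (-0.081), with quantile normalization for Isg20 (0.014) and Rtp4 (0.00896), in replicates 1 and 2 for Isg20 (0.054), Ifit2 (0.096), Irf9 (0.091), Ddx58 (0.045), Rtp4 (0.17), Herc6 (0.15) and Ifnab (-0.061), and in replicates 3 and 4 for Oas3 (0.10), Dhx58 (-0.17) and Il2ra (-0.057). Without single arrays, the change ran from -0.20 to 0.066 for Herc6, -0.061 to 0.19 for Ifnab, -0.032 to 0.077 for Il2ra, -0.063 to 0.043 for Isg20, -0.15 to 0.014 for Oas3 and -0.093 to 0.084 for Rtp4. With 4 arrays a group, differences of this size were not detectable. Mx2 and Ifnb1 were too dim to test.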
